A study of Mus musculus with 8 samples.

Results

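The genes described here are 44 antiviral interferon-stimulated genes and their regulators, followed in mouse embryonic stem cells whose cohesin or condensin subunits had been depleted. They were taken by name from a list of interferon receptors, Stat and Irf transcription factors, nucleic acid sensors and antiviral effectors, with no threshold on any measured value. The list was chosen with earlier results of these data known, so the shares of called genes given below describe it and are no independent test. Of the 44, 42 had a probe set that carries their symbol alone, and 37 were bright enough to be tested, out of 12394 genes tested and 18140 genes measured. The cells were of the V6.5 embryonic stem cell line, infected with virus carrying a short hairpin RNA in 8 µg/ml polybrene, kept in 4 µg/ml puromycin for 4 days and lysed on day 5. The Smc1 group (gene Smc1a, a core cohesin subunit) was 2 biological replicates of 1 hairpin. The CapH2 group (gene Ncaph2, a subunit of condensin II only) was 1 array each of hairpins 3 and 4, and the Smc2 group (gene Smc2, shared by condensin I and condensin II) was 1 array each of hairpins 1 and 2. The GFP control group was 2 biological replicates of 1 hairpin against GFP, so all 4 groups had been through infection and selection, and no uninfected cells enter the comparisons.

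Interferons bind receptors at the cell surface and signal through Janus kinases to transcription factors in the nucleus. The response to type I interferon uses Stat2 and Irf9 on the interferon-stimulated response element, and interferon gamma acts through a second element, the gamma-activated site. The genes these factors switch on include sensors of viral RNA and DNA, proteins that block virus entry, translation or release, and the Stat and Irf factors themselves, so that the response feeds back on its own machinery. Cells also make interferon when the sensors Ddx58 and Ifih1 meet double-stranded RNA, and pluripotent stem cells are known for a weak response of this kind compared with differentiated cells.

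Each targeted gene was checked first. Smc1a measured 535 and 454 on the Smc1 arrays, against 4165 and 3662 on the GFP arrays, and fell by 2.95 on the log2 scale (SE 0.164, limma adjusted p = 7.81e-05). Ncaph2 fell by 2.96 in the CapH2 knockdown and Smc2 by 1.64 in the Smc2 knockdown (limma adjusted p = 0.00115 and 0.0154). Values are linear intensities per probe set, with array medians of 62.5 to 74.5, and with 2 arrays in each group their number limits how precise any value is. Each pair of values is in the order replicate 1 and replicate 2 for Smc1 and GFP, hairpin 3 and hairpin 4 for CapH2, and hairpin 1 and hairpin 2 for Smc2. All changes are differences of log2(intensity + 16), which understates the change of dim genes, with a standard error (SE) from a fit over all 8 arrays. A gene counts as called where its p, adjusted by Benjamini-Hochberg over all genes tested in that comparison, is below 0.05. Since the Smc1 and GFP groups each rest on 1 hairpin, effects of a hairpin on other genes cannot be told apart from those of its target.

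The promoters of the 44 genes were searched for the core of the interferon-stimulated response element, GAAANNGAAA in which N is any base, on both strands. The window ran from 250 bases before to 50 bases after the start of each gene in the RefSeq annotation of GRCm38.p6, and 35 of the 44 genes had one. The core lay in 13 of these 35 (37.1%), against 3.99% of 27025 genes with a window and 3.44% of all 32851 windows. It lay in 5 of the 11 genes with a window that rose in the Smc1 knockdown and in 6 of the 18 that were tested and not called there. The core of the gamma-activated site, TTCNNNGAA, which reads alike on both strands, lay in 10 of the 35 (28.6%), against 9.55% of genes and 8.3% of windows. It lay in 3 of the 11 genes that rose and in 7 of the 18 that were tested and not called. In the windows of Bst2 and Ifitm3 it overlaps a response element core. The 6 stretches shown belong to the called genes that hold a response element core, with the matches in capitals, and are read 5′ to 3′ on the gene's strand from RefSeq. They lie at chr5:92349053-92349139 on the minus strand for Cxcl10, chr2:62646206-62646235 minus for Ifih1, chr7:140955958-140956047 minus for Ifitm2, chr4:40239796-40239863 minus for Ddx58, chr12:26456523-26456612 minus for Rsad2 and chr19:34640745-34640853 plus for Ifit1, all in GRCm38.p6. The matches of Ddx58, Rsad2 and Ifit1 are on the opposite strand and so read TTTCNNTTTC here.
Cxcl10: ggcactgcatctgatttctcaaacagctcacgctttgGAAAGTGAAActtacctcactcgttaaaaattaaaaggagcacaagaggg
Ifih1: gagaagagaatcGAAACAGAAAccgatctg
Ifitm2: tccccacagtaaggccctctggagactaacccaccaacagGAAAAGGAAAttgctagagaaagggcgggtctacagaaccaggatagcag
Ddx58: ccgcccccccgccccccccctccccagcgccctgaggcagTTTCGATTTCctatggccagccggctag
Rsad2: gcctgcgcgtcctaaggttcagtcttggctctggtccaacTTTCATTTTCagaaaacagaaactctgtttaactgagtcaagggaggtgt
Ifit1: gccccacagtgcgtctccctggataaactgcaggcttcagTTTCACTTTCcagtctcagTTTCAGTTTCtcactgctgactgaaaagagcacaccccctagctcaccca
Counted from the start of the gene, the match of Cxcl10 spans positions -213 to -204, that of Rsad2 -120 to -111 and that of Ifitm2 -46 to -37. The matches of Ifih1 (33 to 42) and Ddx58 (3 to 12) lie past the start. Ifit1 holds 2, at -104 to -95 and -85 to -76. A match describes these letters only, and Ifitm2, which holds one, fell in the Smc1 knockdown while the other 5 rose.

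In the Smc1 knockdown, 15 of the 37 tested genes rose against GFP and 2 fell (limma, adjusted p below 0.05). Of all genes tested, 9.3% were called higher and 4.69% lower. The median change of the 37 was 0.94 on the log2 scale, against 0.03 for all genes tested, and 23 of the 37 (62.2%) had an unadjusted p below 0.05, against 31.2% of all genes. Both Smc1 arrays lay above both GFP arrays for 23 of the 37, below for 8, and the groups overlapped for 6, where 34.5% of all genes tested lay above and 28.4% below. Ifih1, Ifit1, Cmpk2 and Rtp4, 4 genes in all, lay above the array median on the 2 Smc1 arrays only and so entered the test through them. The mean of the GFP arrays was below the lowest array median for 6 of the 15 that rose. Without any filter on brightness, 14 of the 42 measured genes were called higher and 2 lower, against 4.88% and 2.03% of the 18140 genes, and the median change of the 42 was 0.55, against 0.011 for all genes. The 3′ to 5′ signal ratio of Actb, which rises when RNA is degraded, was 1.70 and 1.84 in Smc1, 1.67 and 1.98 in CapH2, 1.82 and 2.18 in Smc2 and 2.18 and 2.04 in GFP. With this ratio as a covariate 9 genes were called higher and 1 lower, and the calls over all genes tested dropped as well, to 588 (4.74%) against 1734 (14.0%) without it. Leaving out Smc1 replicate 1 left 5 called genes of the 37 and 138 of all genes (1.11%), and leaving out GFP replicate 1 left 8 and 228 (1.84%). In RNA from whole cultures, fewer or more cells that express a gene and less or more RNA per cell cannot be told apart.

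**Figure D1:**
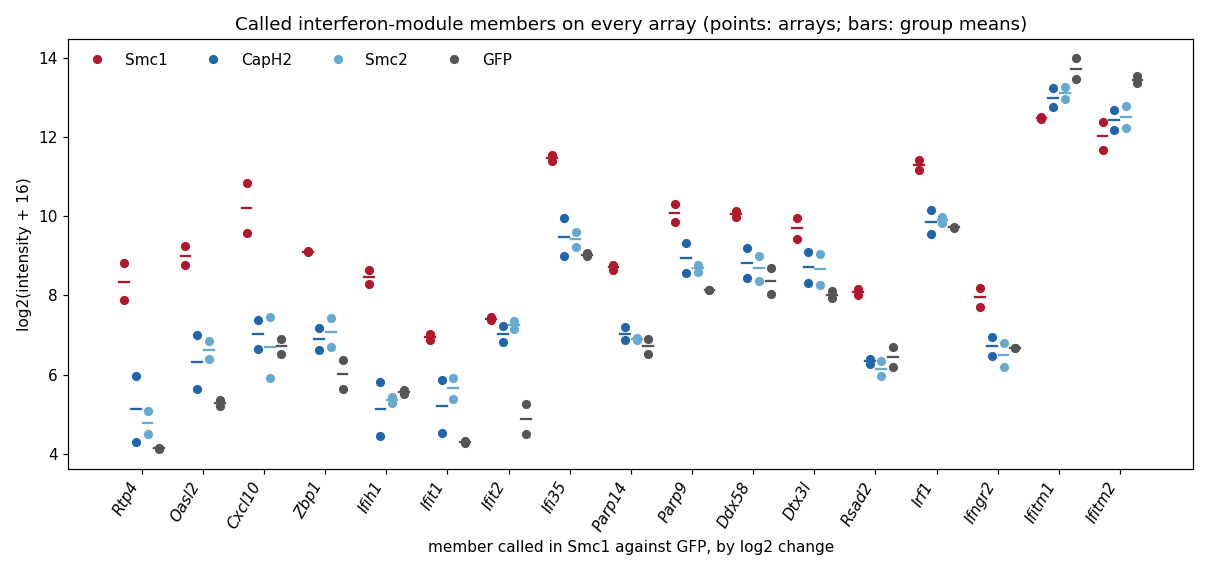
Log2(intensity + 16) of the 17 called genes on each of the 8 arrays (points), with group means as bars and genes ordered by their change in the Smc1 knockdown. The Smc1 points stand above all GFP points for 15 genes and below them for Ifitm1 and Ifitm2, and the GFP points of Rtp4 and Ifit1 lie near the floor that the added 16 sets.

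Of the 4 receptor genes, 1 rose, against 9.3% of all genes tested. This and the counts by role that follow rest on few genes each. Ifngr2, the signalling subunit of the interferon gamma receptor, measured 277 and 194 in Smc1, 108 and 72.3 in CapH2, 57.4 and 94.4 in Smc2 and 85.8 and 85.8 in GFP. Both Smc1 arrays stood above every other array, and the condensin arrays overlapped GFP. Its change was 1.29 (SE 0.337, limma adjusted p = 0.0331), and the call was lost in 7 of 17 alternative settings. Ifngr1, which binds interferon gamma, gave 0.33 and Ifnar1, a chain of the type I receptor, 0.68, neither of them called (limma adjusted p = 0.328 and 0.0819). Ifnar2, the other type I chain, gave -0.60 on its brightest probe set (limma adjusted p = 0.212) and 1.04 and 0.39 on 2 dimmer ones, so its probe sets do not share a direction.

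Among the transcription factors, Irf1 rose and Stat2, Irf3 and Irf9 did not pass the test. Irf1, which switches on many interferon gamma targets and is itself induced by interferon gamma, measured 2732 and 2291 in Smc1, 1122 and 737 in CapH2, 991 and 891 in Smc2 and 824 and 839 in GFP. The Smc1 arrays were the 2 highest by a wide margin, and the condensin arrays lay around or above GFP. The rise was 1.57 (SE 0.222, limma adjusted p = 0.0034), and the promoter window of Irf1 holds a gamma-activated site core at positions -90 to -82. Stat2, the partner of Irf9 in the type I response, measured 35.1 and 95.5 in Smc1, 86.2 and 127 in CapH2, 75.7 and 66.6 in Smc2 and 157 and 162 in GFP. All 6 knockdown arrays lay below both GFP arrays, yet no comparison called it, with -1.22 in Smc1 (limma adjusted p = 0.0692), and its other probe set gave 0.15. Irf9 gave -0.48 and Irf3, which triggers the first wave of interferon production, 0.40. For Irf9 the differences in CapH2 and Smc2 were -0.63 and -0.64, neither called, and all 6 knockdown arrays lay below both GFP arrays. Irf7, the factor that amplifies interferon production, ranged over 34.1 to 77.9 and was too dim to be tested.

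Of 5 tested sensors and editors of nucleic acids, 3 rose, against 9.3% of all genes tested. Zbp1, which binds Z-form nucleic acid and can start necroptosis, measured 529 and 539 in Smc1, 128 and 82.4 in CapH2, 88.2 and 157 in Smc2 and 33.9 and 66.7 in GFP. Its Smc1 values were far above those on any other array, and the 4 condensin arrays also lay above both GFP arrays. The rise was 3.10 (SE 0.360, limma adjusted p = 0.00235). Ifih1, the sensor MDA5 of long double-stranded RNA, measured 385 and 298 in Smc1, 39.7 and 5.67 in CapH2, 27.1 and 23.1 in Smc2 and 32.9 and 29.6 in GFP. Only the 2 Smc1 arrays lay above the array medians, the CapH2 arrays overlapped GFP and both Smc2 arrays lay below it. The rise of Ifih1, whose window carries its response element core past the start, was 2.91 (SE 0.473, limma adjusted p = 0.00584), or 3.40 with an added constant of 1 and 2.08 with 64. Ddx58, the sensor RIG-I of short double-stranded RNA and the other sensor with a core past its start, measured 1102 and 1003 in Smc1, 573 and 328 in CapH2, 497 and 315 in Smc2 and 245 and 401 in GFP. Here too the Smc1 arrays were highest, while the condensin arrays overlapped GFP. Ddx58 rose by 1.69 (SE 0.328, limma adjusted p = 0.0107), which became 0.95 and was no longer called with the Actb ratio as a covariate (limma adjusted p = 0.0666). Eif2ak2, the kinase PKR that stops translation, and Adar, which edits double-stranded RNA, gave 0.07 and 0.16, with overlapping arrays and no call. Dhx58, a regulator of the other RNA helicases, ranged over 19.9 to 48.8 and was not tested.

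In the ISG15 system, which attaches a small ubiquitin-like protein to others, no tested gene passed. Usp18, which removes ISG15 and damps the type I receptor, measured 121 and 19.6 in Smc1, 20.6 and 22.8 in CapH2, 29.0 and 83.6 in Smc2 and 24.7 and 6.34 in GFP. A single Smc1 array and a single Smc2 array were high, and the difference of 1.21 was not called (limma adjusted p = 0.262). Trim25, a ubiquitin ligase that activates Ddx58, was bright on all arrays and gave 0.07, not called. The only listed probe set of Isg15 carries several symbols, so no value is given for it.

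Of the 8 tested effectors that act on viral RNA or nucleotide pools, 4 rose, against 9.3% of all genes tested. Oasl2, an oligoadenylate synthetase-like protein, measured 588 and 423 in Smc1, 111 and 33.3 in CapH2, 100.1 and 67.6 in Smc2 and 20.6 and 25.0 in GFP. The Smc1 arrays were far above all others, and all 4 condensin arrays stood above the GFP arrays. Oasl2 rose by 3.73 (SE 0.443, limma adjusted p = 0.00235). Rsad2, or viperin, which makes a chain-terminating nucleotide and whose printed window holds 1 core, measured 243 and 269 in Smc1, 61.6 and 68.3 in CapH2, 65.0 and 46.1 in Smc2 and 57.1 and 87.2 in GFP. The condensin arrays overlapped GFP and only the Smc1 arrays were high, with a rise of 1.65 (SE 0.321, limma adjusted p = 0.0109). Cmpk2, a mitochondrial nucleotide kinase, measured 134 and 137 in Smc1, 9.95 and 35.5 in CapH2, 59.7 and 57.5 in Smc2 and 55.3 and 70.8 in GFP. Its Smc1 values were the highest, but the difference from GFP of 0.94 was not called (limma adjusted p = 0.147).

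The Ifit proteins bind viral RNA and stop its translation. Ifit1 measured 102 and 114 in Smc1, 42.0 and 7.08 in CapH2, 26.0 and 44.04 in Smc2 and 3.33 and 3.83 in GFP. The order was Smc1 highest and GFP lowest, with the condensin arrays between them. Ifit1 rose by 2.66 (SE 0.538, limma adjusted p = 0.0127), and its GFP values are so low that the added constant sets the size of the change, 4.57 with a constant of 1 and 1.35 with 64. Ifit2 measured 149 and 159.6 in Smc1, 134 and 97.0 in CapH2, 146 and 127 in Smc2 and 22.4 and 6.48 in GFP. Its condensin arrays were nearly as high as its Smc1 arrays, and all 6 knockdown arrays lay above both GFP arrays. The log2 difference of Ifit2 from GFP was 2.54 in Smc1 (SE 0.358, limma adjusted p = 0.0034), 2.15 in CapH2 (limma adjusted p = 0.153) and 2.37 in Smc2 (limma adjusted p = 0.131), so only the first was called. The size of these differences also moves with the added constant, to 3.55, 3.12 and 3.37 with a constant of 1 and to 1.48, 1.19 and 1.36 with 64. Ifit3 measured 87.3 and 46.9 in Smc1, 68.0 and 7.83 in CapH2, 6.43 and 24.8 in Smc2 and 10.4 and 9.90 in GFP. CapH2 hairpin 3 reached the Smc1 range and hairpin 4 did not, and the Smc1 difference of 1.62 was not called (limma adjusted p = 0.127). Samd9l, a translation inhibitor, measured 203 and 85.2 in Smc1, 115 and 44.6 in CapH2, 105 and 27.1 in Smc2 and 10.6 and 54.1 in GFP. Its replicates spread widely in every group, and its Smc1 difference of 1.79 was not called (limma adjusted p = 0.0998). Oas1a, which makes the activator of RNase L, gave -0.44, not called, and the GTPase genes Mx1 (1.01 to 33.0) and Mx2 (3.86 to 9.81) were below every array median and were not tested.

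Of the 5 genes for membrane proteins, 2 fell and 0 rose, against 4.69% and 9.3% of all genes tested. Ifitm1 and Ifitm2 belong to a family that blocks virus entry at membranes and is highly expressed in stem cells. Ifitm1 measured 5838 and 5571 in Smc1, 6918 and 9681 in CapH2, 7966 and 9815 in Smc2 and 16257 and 11351 in GFP. All knockdown arrays lay below both GFP arrays, the Smc1 arrays lowest. Ifitm1 fell by 1.25 (SE 0.207, limma adjusted p = 0.00627). Ifitm2 measured 3238 and 5296 in Smc1, 4639 and 6522 in CapH2, 4803 and 7018 in Smc2 and 10510 and 11879 in GFP. Again all 6 knockdown arrays were below GFP, in a gene whose window holds a response element core, and the fall in Smc1 was -1.43 (SE 0.262, limma adjusted p = 0.00884). In CapH2 and Smc2 their differences from GFP were -0.73 and -0.62 for Ifitm1 and -1.02 and -0.94 for Ifitm2, none called. Ifitm3, the member most studied against influenza virus, gave -0.28 (limma adjusted p = 0.142), Ly6e gave 0.20, and Bst2, or tetherin, which holds budding virions at the surface, gave 0.43, none called. Ifitm3 gave -0.60 in CapH2 and -0.47 in Smc2, neither called, and all 6 of its knockdown arrays lay below both GFP arrays.

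All 3 genes of the ADP-ribosylation group rose, against 9.3% of all genes tested. Parp14, a mono-ADP-ribosyltransferase, measured 383 and 422 in Smc1, 131 and 101 in CapH2, 105 and 102 in Smc2 and 75.2 and 104 in GFP. The Smc1 arrays were well above the rest, and the other groups lay close together. Parp14 rose by 2.00 (SE 0.271, limma adjusted p = 0.0031), on its brighter probe set, while a second one below the array medians gave 0.24. Parp9 and Dtx3l encode proteins that work as a complex, a ubiquitin ligase with its partner. Parp9 measured 1247 and 910.5 in Smc1, 619.9 and 361 in CapH2, 421 and 371 in Smc2 and 267 and 267 in GFP. Dtx3l measured 981 and 675 in Smc1, 536 and 305 in CapH2, 513 and 293 in Smc2 and 227 and 259.8 in GFP. In both, Smc1 was highest, and every condensin array lay above both GFP arrays. The rises were 1.94 for Parp9 (SE 0.271, limma adjusted p = 0.00337) and 1.68 for Dtx3l (SE 0.334, limma adjusted p = 0.0115). With the Actb ratio as a covariate Dtx3l gave 0.89 and was not called (limma adjusted p = 0.0667).

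The remaining genes have varied roles, and 3 of the 6 tested rose, against 9.3% of all genes tested. Rtp4, a receptor-transport chaperone that is strongly induced by interferon, measured 437 and 219 in Smc1, 45.9 and 3.57 in CapH2, 6.48 and 17.6 in Smc2 and 1.32 and 1.81 in GFP. Its GFP values are close to 0, CapH2 hairpin 3 was the brightest array outside the Smc1 group, and the Smc1 arrays were the only ones above the medians. The change of 4.21 (SE 0.615, limma adjusted p = 0.00389) was 6.92 with an added constant of 1 and 2.52 with 64, so its size is not firm. Cxcl10, a chemokine that attracts T cells and has its core farthest from the start among the sequences printed, measured 1804 and 751 in Smc1, 151 and 84.8 in CapH2, 44.1 and 160.3 in Smc2 and 76.3 and 104 in GFP. The 2 Smc1 replicates differed by over a factor of 2 but both exceeded all other arrays, with a rise of 3.49 (SE 0.532, limma adjusted p = 0.00456). Ifi35, a cytosolic partner of Nmi, measured 2996 and 2701 in Smc1, 982 and 490.3 in CapH2, 586 and 757 in Smc2 and 493 and 521 in GFP. The Smc1 arrays were close to each other and far above the rest, and the rise was 2.45 (SE 0.291, limma adjusted p = 0.00235). Lgals3bp, a secreted glycoprotein, gave 0.75, Xaf1, a promoter of apoptosis, 0.31 and Ifi30, a lysosomal thiol reductase, -0.87, none called. Sp100, a nuclear body protein, ranged over 16.7 to 42.1 and was not tested. Ifi44 had no probe set with its symbol alone.

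**Figure D2:**
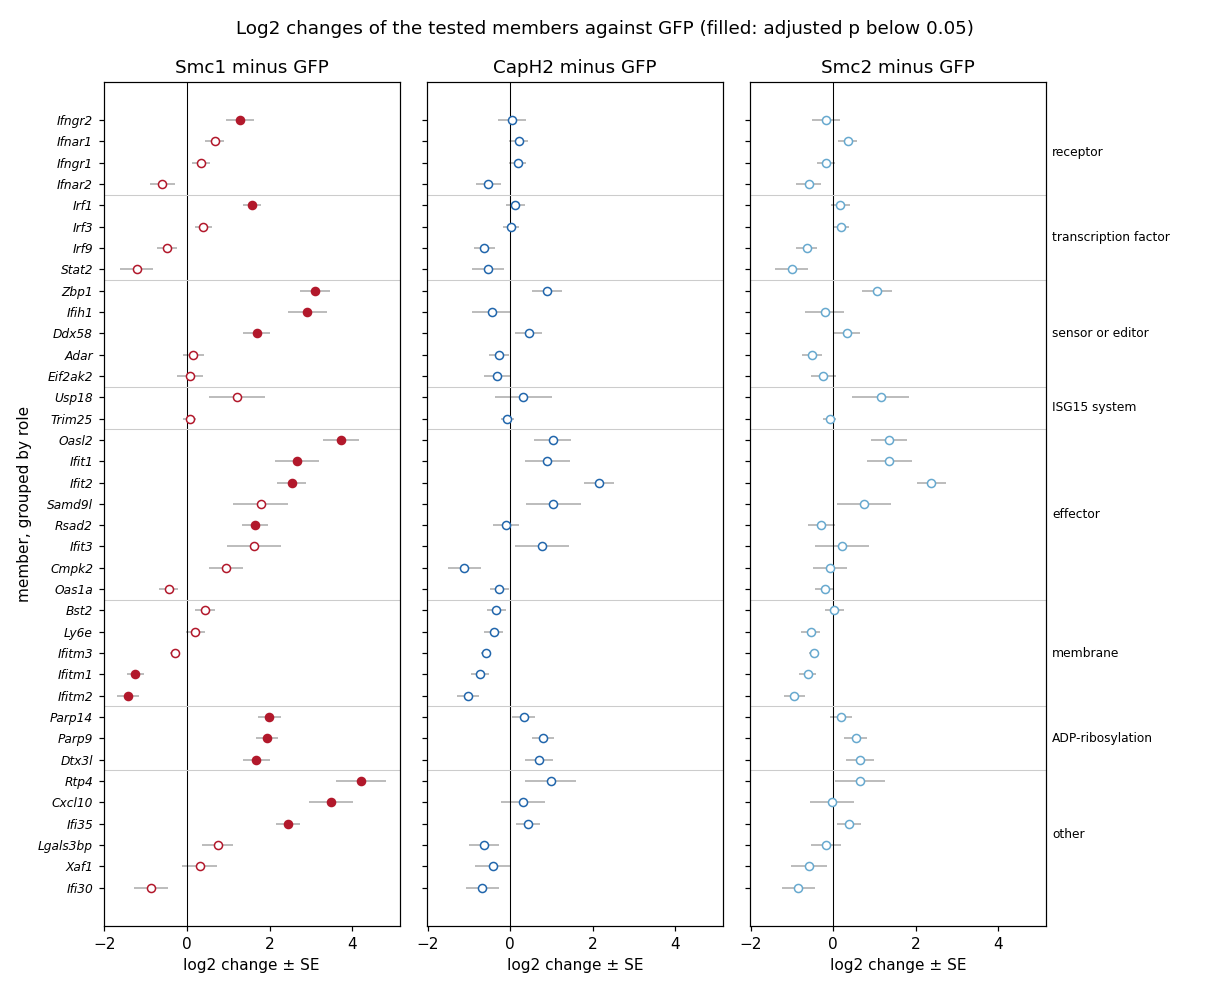
Log2 change ± SE (limma, 2 arrays per group) of the 37 tested genes in the Smc1, CapH2 and Smc2 knockdowns against the same GFP arrays, grouped by role, with called genes filled. In the Smc1 panel 17 points are filled, and in the CapH2 and Smc2 panels none is, with Ifit2 the highest point in each of these.

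In neither condensin knockdown was any of the 37 genes called against GFP. In CapH2, 0 were called by limma and 9 (24.3%) had an unadjusted p below 0.05, with a median change of 0.02, where 0.0161% of all genes tested were called. In Smc2 limma called 0, and 10 (27.0%) reached an unadjusted p below 0.05, with a median of -0.08 and again 0.0161% of all genes called. Among all genes tested, 12.6% had an unadjusted p below 0.05 in each of these comparisons, a smaller share than among the 37. Of the 37, 8 had both CapH2 arrays above both GFP arrays and 8 had both below, against 25.3% and 21.9% of all genes. In Smc2 the counts were 11 above and 9 below, against 23.1% and 21.7%. The 3 comparisons share the GFP arrays, so a deviation of those arrays enters all of them. Differences of single genes from GFP stood side by side as 3.10, 0.89 and 1.06 for Zbp1 in Smc1, CapH2 and Smc2, as 3.73, 1.03 and 1.35 for Oasl2, and as 3.49, 0.30 and -0.03 for Cxcl10. CapH2 against Smc2 called 0 of the 37 (1 at an unadjusted p below 0.05), where 0.00807% of all genes were called. That gene was Cmpk2, named after its values were seen, at -1.03.

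The Smc1 knockdown was also set against the mean of the condensin knockdowns, which went through the same infection with other hairpins and leaves the GFP arrays out of the difference. Here 13 of the 37 genes were higher and 0 lower, with 5.53% and 2.23% of all genes tested called in these directions. The median difference was 0.82, against 0.02 for all genes. The Smc1 arrays lay above all 4 condensin arrays for 24 of the 37 and below for 1, against 20.5% and 14.6% of all genes. In all, 12 genes were called in both comparisons, which share the Smc1 arrays, out of 17 called against GFP and 13 called here. The largest differences were those of Rtp4 at 3.40 (SE 0.532), Cxcl10 at 3.35 (SE 0.461) and Ifih1 at 3.23 (SE 0.409), with limma adjusted p = 0.00801, 0.00542 and 0.00385. Oasl2 differed by 2.54, Zbp1 by 2.12, Ifi35 by 2.04, Rsad2 by 1.84, Parp14 by 1.74 and Irf1 by 1.42. Ifngr2 (1.35), Ddx58 (1.31) and Parp9 (1.27) were called as well, and the limma adjusted p of these 9 ran from 0.00355 for Ifi35 to 0.0249 for Ddx58. Cmpk2 was called here alone, at 1.54 (SE 0.354, limma adjusted p = 0.0303), a call lost in 6 of 15 alternative settings. Rtp4, Ifih1, Cmpk2 and Ifit1 were above the array median on the 2 Smc1 arrays only, so they entered this comparison through those arrays too. Called against GFP but not here were Ifit1 at 1.53, Dtx3l at 1.01, Ifit2 at 0.27, Ifitm1 at -0.58 and Ifitm2 at -0.45, with limma adjusted p = 0.076, 0.0638, 0.645, 0.0821 and 0.27. The SE of the Ifit2 difference, 0.310, exceeds the difference itself. Without Smc1 replicate 1, which leaves 1 array in that group, no call among the 37 was left, and most calls over all genes tested were lost as well.

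**Figure D3:**
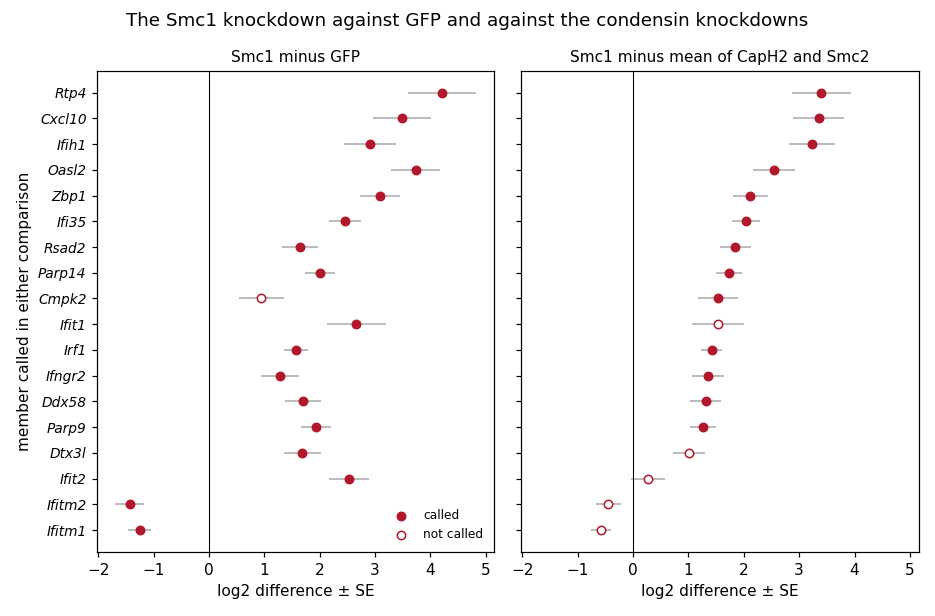
Log2 difference ± SE (limma) of the 18 genes called in either Smc1 comparison, with Smc1 minus GFP on the left and Smc1 minus the mean of CapH2 and Smc2 on the right, filled where called. Rtp4, Cxcl10 and Ifih1 lie above 2.9 in the left and above 3.2 in the right panel, while Ifit2 lies at 2.54 in the left panel and at 0.27 in the right.

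Arrays of 1 group differed as well. Relative to the GFP mean, the median over the 37 genes was 0.93 and 0.89 in Smc1, 0.21 and -0.13 in CapH2, -0.10 and 0.00 in Smc2, and -0.06 and 0.06 in GFP. CapH2 hairpin 3 gave the higher value for 23 of the 37 (62.2%, against 51.4% of all genes) and for 14 of the 15 that rose in Smc1, all but Rsad2. Of all 1153 genes that rose in Smc1, 77.1% were higher on hairpin 3. Ifih1, Ifit1 and Rtp4 show the gap between these hairpins, with 39.7 and 5.67 for Ifih1, 42.0 and 7.08 for Ifit1 and 45.9 and 3.57 for Rtp4. With 1 array per hairpin, a difference between hairpins and one between arrays cannot be told apart. GFP replicate 1 gave the higher value for 10 of the 37 (27.0%, against 47.4% of all genes).

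Where a gene had several probe sets, most but not all gave the same direction in Smc1 against GFP. The second probe sets of Zbp1 and Dtx3l gave 2.66 and 2.21, and those of Ifi35 gave 2.04 and 0.80. Rsad2 gave 1.48 and 0.72 on its dimmer probe sets, Ifngr2 gave 0.76, and Ddx58 gave 1.42 and 0.00. The dimmer probe set of Rtp4, between 4.57 and 27.2 on all arrays, gave 0.25. Besides Ifnar2 and Stat2, dimmer probe sets opposed the brightest for Ifnar1 (-0.19 against 0.68) and Cmpk2 (-0.14 against 0.94). For Irf3 they gave 0.78, -0.36 and -1.01 against 0.40, and for the untested Dhx58 -1.65 and -0.17 against 0.15. Trim25, at 0.07, had others at -0.01 and 1.20, and Adar, at 0.16, had others at 0.79 and 0.51. Probe sets can target different transcript ends, and no test was run on the dimmer ones.

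**Figure D4:**
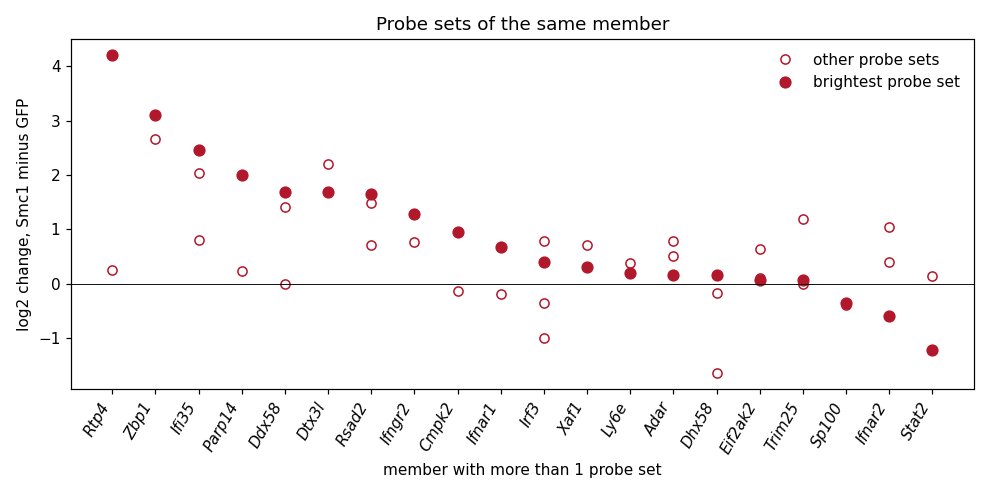
Log2 change in Smc1 against GFP for every probe set of the 20 genes with more than 1, with the brightest, which stood for the gene, filled. The other probe sets of Zbp1, Ifi35, Dtx3l, Rsad2 and Ifngr2 lie above 0 with the brightest, and those of Ifnar2 and Stat2 lie above 0 where the brightest lies below.

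The wider pathway was followed in 106 further symbols, of which 84 were measured and 66 tested. In Smc1 against GFP 12 of the 66 rose and 2 fell, with a median of 0.20, where 9.3% and 4.69% of all genes tested were called and their median was 0.03. In CapH2 and in Smc2 0 were called by limma, with 6 (9.09%) and 8 (12.1%) at an unadjusted p below 0.05. Neither share exceeds the 12.6% of all genes tested in each of these comparisons. Nmi, the partner of Ifi35, rose by 2.84, Irf2, which shares binding sites with Irf1, by 2.63, the RNA granule gene Tdrd7 by 2.13 and the helicase gene Ddx60 by 1.83. Myd88, an adaptor of Toll-like receptors, rose by 1.24, Parp12 by 1.01, Irf2bp2 by 0.96 and the antibody receptor gene Trim21 by 0.89. Apobec3, a cytidine deaminase that restricts retroviruses, fell by 1.61 and Phf11d by 1.77. The limma adjusted p of these 10 ran from 0.00235 for Nmi to 0.0329 for Myd88. Irf2 is one that lay above the array median on the 2 Smc1 arrays only, and so entered the test through them. Of 14 tested kinases, Stats and phosphatases of the Janus kinase pathway, 2 rose, and of 15 tested adaptors and sensor kinases 1 rose. The ligand Ifnb1 measured 77.0 and 21.3 in Smc1, 31.3 and 92.4 in CapH2, 40.4 and 53.3 in Smc2 and 61.2 and 66.5 in GFP. Only Smc1 replicate 1 and CapH2 hairpin 4 lay above their array medians for it. Ifnb1 was not called, and so dim a gene says little about the ligand. Side by side with these, 7 of 8 tested Gbp and Irg GTPase genes rose in Smc1 with a median of 2.81, and 10 of 11 tested immunoproteasome and MHC class I genes with a median of 1.91, both against the same 9.3% and 0.03 for all genes.

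Markers of other cells were read on the same arrays. All 10 embryonic stem cell markers lay above the median on all 8 arrays. In Smc1 5 of them (Pou5f1, Nanog, Sox2, Zfp42 and Esrrb) fell, against 4.69% of all genes tested. The summed intensity of the 10 was 91700 and 108406 in Smc1, 119209 and 121715 in CapH2, 128543 and 132763 in Smc2 and 138761 and 134557 in GFP. Of 14 leukocyte markers 12 were measured and 2 were bright enough to test, with 0 called by limma and 0 at an unadjusted p below 0.05. These 2, the macrophage markers Csf1r and Cd68, lay above the median on all 8 arrays. Csf1r measured 209 and 436 in Smc1 and 190 and 261 in GFP. Cd68 measured 648 and 946 in Smc1 and 1013 and 964 in GFP. The sum of the 12 measured ran over 1183 to 1643 on Smc1, 755 to 1035 on CapH2, 664 to 1361 on Smc2 and 1453 to 1458 on GFP. Ptprc, the pan-leukocyte marker, measured 24.9 and 1.43 on the Smc1 arrays and 10.1 and 5.26 on the GFP arrays, below the array medians. Over the 12 measured leukocyte markers, both Smc1 arrays lay above both GFP arrays for 2 (Cd14 and Itgax) and below for 3. Of all genes tested, 34.5% lay above and 28.4% below, an unlike set, since only 2 of these markers were bright enough to be tested. Cd14, a monocyte marker, measured 106 and 71.8 in Smc1, 51.2 and 6.39 in CapH2, 31.2 and 4.36 in Smc2 and 7.77 and 9.37 in GFP, too dim on most arrays to be tested. Of 12 fibroblast markers 9 were tested, of which 5 had a difference above 0 and 4 below. Over the 12 measured, both Smc1 arrays lay above both GFP arrays for 5 (Col3a1, Dcn, Lum, Pdgfra and Pdgfrb). They lay below for 1 (Postn) and overlapped for 6, against the same 34.5% and 28.4% of all genes tested. Dcn, Lum and Twist2 were too dim to be among the genes tested. Of the 9 tested, Col3a1 (1.92) and Pdgfra (1.37) rose, against 9.3% of all genes tested. Postn stood at -1.16, not called (limma adjusted p = 0.0736). Against the condensin knockdowns Postn was called lower, at -1.41 (limma adjusted p = 0.0337), and Col3a1 higher, at 1.61 (limma adjusted p = 0.0261), while the list's sum was 7587 to 8347 on Smc1, 8943 to 10005 on CapH2, 6776 to 8487 on Smc2 and 6011 to 10062 on GFP. The part of these markers in the changes of the interferon genes was not tested.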

How the data were processed

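RNA from 8 cultures was measured on 1-colour Affymetrix arrays, 2 for each of the Smc1, CapH2, Smc2 and GFP groups. The deposited intensity values cover 44903 probe sets, with 1 linear number for each on every array. The sources used here do not say how the authors made the intensities from the scans. They ran from 0.0461 to 54756, and means trimmed by 2% were 488.9 to 490.0 on all arrays, which shows a common scaling of the arrays. Detection calls were not used here.

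Of the probe sets, 34771 carried exactly 1 symbol, 926 several and 9206 none, and the 64 array controls were left out. The brightest probe set with 1 symbol stood for a gene. A gene was tested where 2 or more of the 8 arrays placed it above their own median, on log2(intensity + 16) with limma 3.58.1 in R 4.3.3 (a mean per group, variance trend on intensity, 4 residual degrees of freedom and 5.97 from the prior). The 1 spread per gene pools differences between hairpins with those between replicates. The fit was tested on simulated data. Genes called in any of the 5 comparisons, or with a log2 change of at least 1 either way in Smc1 against GFP, were given on every array, and of the wider pathway the 10 called genes with the smallest adjusted p were named. The genes and lists were chosen with earlier results of these data known. The pathway list holds a few genes under both an older and a newer symbol. Promoter windows are those of RefSeq (GRCm38.p6), and at most 30 bases past a gene's start are printed. Alternatives changed the added constant, the filter, the scaling, the probe set rule, the arrays fitted, the Actb covariate and the replicate block, and left out each array.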

Additional observations from a re-analysis of the deposited data

How the results depend on the processing

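In Smc1 against GFP 17 of 37 genes were called, and 14.0% of all genes. With the Actb ratio as a covariate 10 were called, and 4.74% of all genes, and the cause was not tested. Leaving out 1 array gave 5 to 17 calls: 5 without Smc1 replicate 1 (1.11% of all genes), 8 without GFP replicate 1 (1.84%), 13 without GFP replicate 2 (4.48%) and 15 without Smc1 replicate 2 (8.44%), where the lone array of a group was assumed to vary like the others. The other alternatives gave 16 to 19, with 6.92% to 21.8% of all genes. Ifi35, Ifit2, Oasl2 and Zbp1 stayed called in all 17 alternatives, while Ifngr2 lost its call in 7, Ifit1 in 5, Dtx3l, Ifitm2 and Rsad2 in 4, Ddx58 and Ifih1 in 3, Cxcl10 and Ifitm1 in 2 and Irf1, Parp14, Parp9 and Rtp4 in 1. Parp14 lost its call with the mean of its probe sets (1.12, limma adjusted p = 0.0565). Stat2 was called without Smc1 replicate 2 (-1.78, limma adjusted p = 0.0307) and Samd9l with only the arrays compared (limma adjusted p = 0.035). The fit with the replicate block on Smc1 and GFP called 16, all among the 17, losing Ifngr2. The replicate numbers do not pair the arrays by the labels, and the correlation over genes of the replicate differences was 0.0667. In Smc2 against GFP 1 gene, Ifit2, was called with the Actb covariate (2.34, limma adjusted p = 0.0485), and leaving out 1 array gave 0 to 1, the 1 being Ifit2 without Smc2 hairpin 2 (2.47, limma adjusted p = 0.0424). In Smc1 against the condensin knockdowns 13 were called, and 12 to 15 in the alternatives that did not leave out a single array. The fit without Smc1 replicate 1 is described above. For this comparison and Smc2 against GFP, the share of all genes called in each alternative is not given. A change in these counts therefore cannot be told apart from a change over all genes. In CapH2 against GFP and CapH2 against Smc2 0 were called by limma in all alternatives, and in the first Samd9l, not called, turned to -0.27 with the Actb covariate, against 1.04 without it. Without detection calls, signal over background is not known for genes below the array medians.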

Other observations

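Outside the 44 genes, 12 of the 66 tested genes of the wider pathway were higher in the Smc1 knockdown than in the condensin knockdowns and 0 were lower (limma, adjusted p below 0.05), against 5.53% and 2.23% of all genes tested. Called there and not against GFP were Jak2, a Janus kinase, at 0.98, Ikbke, a kinase of Irf3, at 1.72, and Isg20, an RNA exonuclease, at 2.47, with limma adjusted p = 0.0181, 0.0334 and 0.0391. Against GFP the same genes gave 0.70, 1.43 and 1.98, with limma adjusted p = 0.0625, 0.0703 and 0.0887. Ikbke and Isg20 lay above the array median on the 2 Smc1 arrays only and so entered the tests through them. Of 2 tested interferon ligand genes, Ifnz measured 203 and 87.2 in Smc1, 86.7 and 45.4 in CapH2, 87.9 and 41.6 in Smc2 and 45.7 and 8.67 in GFP. The Smc1 arrays lay above both GFP arrays, and the change of 1.95 passed the test narrowly (limma adjusted p = 0.0478). These 4 genes were named after their values were seen.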
